A study of Mus musculus with 9 samples.

Results

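The miR-181 family was followed through mouse embryos that carried different deletions within the miR-17~92 cluster. Its members were taken by name from the table of mature miRNAs, and they numbered 7 of 977 accessions. Of these, 4 are arms from the 5′ side of their hairpins (mmu-miR-181a-5p, mmu-miR-181b-5p, mmu-miR-181c-5p and mmu-miR-181d-5p) and 3 from the 3′ side (mmu-miR-181a-1-3p, mmu-miR-181a-2-3p and mmu-miR-181c-3p). The table listed them in 9 rows, and the rows to be counted were chosen by their summed levels over the libraries of known genotype. Rows of 1 accession whose totals lay within 10% of each other were counted once, which left 8 rows. The 2 rows of miR-181a-5p differed by 0.00396% in total and were merged, whereas those of miR-181b-5p differed by 18.4% and stayed apart. Over the whole table the largest difference merged was 9.57% and the smallest kept apart was 13.1%. miR-181b-5p below is the higher of its rows.

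The embryos were at embryonic day 9.5, labelled female throughout, and had been stripped of the heart and the tail bud. Each genotype was 1 small RNA library: deletion of the whole cluster (full deletion), of miR-17 (ΔmiR-17), of miR-18 (ΔmiR-18), of miR-19 (ΔmiR-19) or of miR-92 (ΔmiR-92), joint deletion of 2 of them (ΔmiR-17,18) or of all but miR-19 (ΔmiR-17,18,92), and wild type with the intact cluster. How many embryos entered a library was not given in the sources used here. Undetermined reads formed a further library, which entered no ratio to wild type and no fit. Because each genotype was sequenced once, every ratio to wild type compares 2 libraries with no replicate check, and its 95% interval covers counting error only.

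The libraries of known genotype held between 6564471 and 18481380 reads, counted over the 986 rows of mature miRNAs left after merging. Levels are given as nRPM, the deposited normalised values multiplied by 0.116 in every library, and 1 read was worth 0.0624 nRPM in the deepest library, ΔmiR-18, and 0.157 nRPM in wild type. The deleted arms were low wherever the labels say so. The highest level of miR-17-5p where it had been deleted was 180.0 nRPM and its lowest level where kept was 17330.5 nRPM. The corresponding levels were 72.6 and 3446 nRPM for miR-18a-5p, 15.1 and 3157 nRPM for miR-19a-3p, and 1.26 and 502 nRPM for miR-92a-1-5p.

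A miRNA hairpin is cut into a duplex of a 5p and a 3p arm, of which mostly one is loaded into an Argonaute protein and guides it to messenger RNAs through its seed, the bases near its 5′ end. Arms with the same seed can bind overlapping sets of messenger RNAs. The miR-181 family is known from lymphocyte development, where miR-181a-5p raises the sensitivity of the T-cell receptor in mouse thymocytes, and its members are also abundant in brain.

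The mature sequences, 5′ to 3′ from RefSeq (GRCm38.p6), are shown because likeness in sequence and position of the hairpins are both set against the levels below. All 7 members had an entry, and capitals mark the seed, bases 2 to 8.
mmu-miR-181a-5p: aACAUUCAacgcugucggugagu
mmu-miR-181c-5p: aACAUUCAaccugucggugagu
mmu-miR-181b-5p: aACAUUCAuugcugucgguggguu
mmu-miR-181d-5p: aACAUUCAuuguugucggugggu
mmu-miR-181a-1-3p: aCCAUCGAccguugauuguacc
mmu-miR-181c-3p: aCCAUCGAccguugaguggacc
mmu-miR-181a-2-3p: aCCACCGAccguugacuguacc

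The 4 5p arms share the seed ACAUUCA, which no other of the 1679 mature names in the reference table carries. miR-181c-5p is miR-181a-5p without the G at position 11, counted from 1 at the 5′ end, and the pair shares its first 10 and last 12 bases. miR-181d-5p differs from miR-181b-5p by C12U and by lacking base 24. miR-181b-5p differs from miR-181a-5p by A9U, C10U and A21G and by 1 added base. On the 3′ side miR-181a-1-3p and miR-181c-3p share the seed CCAUCGA, and miR-181a-2-3p, with U5C and U16C relative to miR-181a-1-3p, has the seed CCACCGA. How reads that match more than 1 place were counted was not given in the sources used here, so the split of reads among such similar arms is uncertain.

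The 6 hairpins lie in 3 pairs. On GRCm38, which is not the build of the deposited table (mm9), GENCODE places Mir181a-1 at chr1:137966455-137966541 and Mir181b-1 at chr1:137966639-137966718, 97 bases apart on the plus strand. Both lie in an intron of Gm4258 and overlap an exon of the lincRNA A430106G13Rik, all on the same strand. Mir181a-2 (chr2:38852735-38852810) and Mir181b-2 (chr2:38853830-38853918) lie 1019 bases apart on the plus strand, in an intron of Nr6a1 on the opposite strand. Mir181c (chr8:84178873-84178961) and Mir181d (chr8:84178716-84178787) lie 85 bases apart on the minus strand in an intron of Nanos3. Neighbouring hairpins thus pair an a with a b, or c with d, whereas by sequence a pairs with c, and b with d.

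miR-181a-5p was the most abundant member by mean and miR-181b-5p the next. mmu-miR-181a-5p had 7095 nRPM in the full deletion, 6494 in ΔmiR-18, 7263 in ΔmiR-17, 3401 in ΔmiR-92, 3092 in ΔmiR-19, 12697 in ΔmiR-17,18,92 and 4604 in ΔmiR-17,18, against 4658 nRPM in wild type. ΔmiR-17,18,92 stood highest and ΔmiR-19 lowest, with 4 mutants above wild type and 3 below. Its mean over the libraries was 6163 ± 3085 nRPM (SD, n = 8), rank 40 of the 986 rows.

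miR-181c-5p, known from rat cardiac myocytes as a miRNA that acts on a mitochondrial transcript, followed the same order of extremes. mmu-miR-181c-5p had 1822 nRPM in the full deletion, 1546 in ΔmiR-18, 2273 in ΔmiR-17, 783 in ΔmiR-92, 461 in ΔmiR-19, 4153 in ΔmiR-17,18,92 and 1166 in ΔmiR-17,18, against 1188 nRPM in wild type. The highest and lowest libraries were again ΔmiR-17,18,92 and ΔmiR-19, and the range was 9.01-fold, against 4.11-fold for miR-181a-5p.

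miR-181b-5p, which restrains the antibody-diversifying enzyme AID in mouse B cells, stayed nearer to one level. mmu-miR-181b-5p had 3083 nRPM in the full deletion, 4626 in ΔmiR-18, 3132 in ΔmiR-17, 2809.5 in ΔmiR-92, 3073 in ΔmiR-19, 5059 in ΔmiR-17,18,92 and 3129 in ΔmiR-17,18, against 3125 nRPM in wild type. ΔmiR-18 and ΔmiR-17,18,92 stood above the other 6 libraries, which lay close together. Its lower row ran between 2323 nRPM in the full deletion and 4063 nRPM in ΔmiR-18.

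miR-181d-5p, reported to act on the DNA repair gene MGMT in human glioma, varied least. mmu-miR-181d-5p had 1517 nRPM in the full deletion, 2390.4 in ΔmiR-18, 1890.0 in ΔmiR-17, 2213 in ΔmiR-92, 1526 in ΔmiR-19, 2479 in ΔmiR-17,18,92 and 2286 in ΔmiR-17,18, against 1810.0 nRPM in wild type. Its range was 1.63-fold and that of miR-181b-5p 1.80-fold. Among the 319 rows outside the cluster with a mean of at least 100 nRPM, the median range over the 8 libraries was 2.35-fold. Of these rows 96.6% had a smaller range than miR-181c-5p, 84.6% a smaller one than miR-181a-5p, 21.9% than miR-181b-5p and 12.5% than miR-181d-5p. Without ΔmiR-17,18,92, left out after the data had been seen, the range was 4.93-fold for miR-181c-5p and 2.35-fold for miR-181a-5p. Over those libraries 91.2% and 53.9% of the rows had a smaller range, and the median was 2.25-fold. ΔmiR-17,18,92 was the highest library of both members but not of every row, so these shares set a trimmed range against untrimmed ones.

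**Figure D1:**
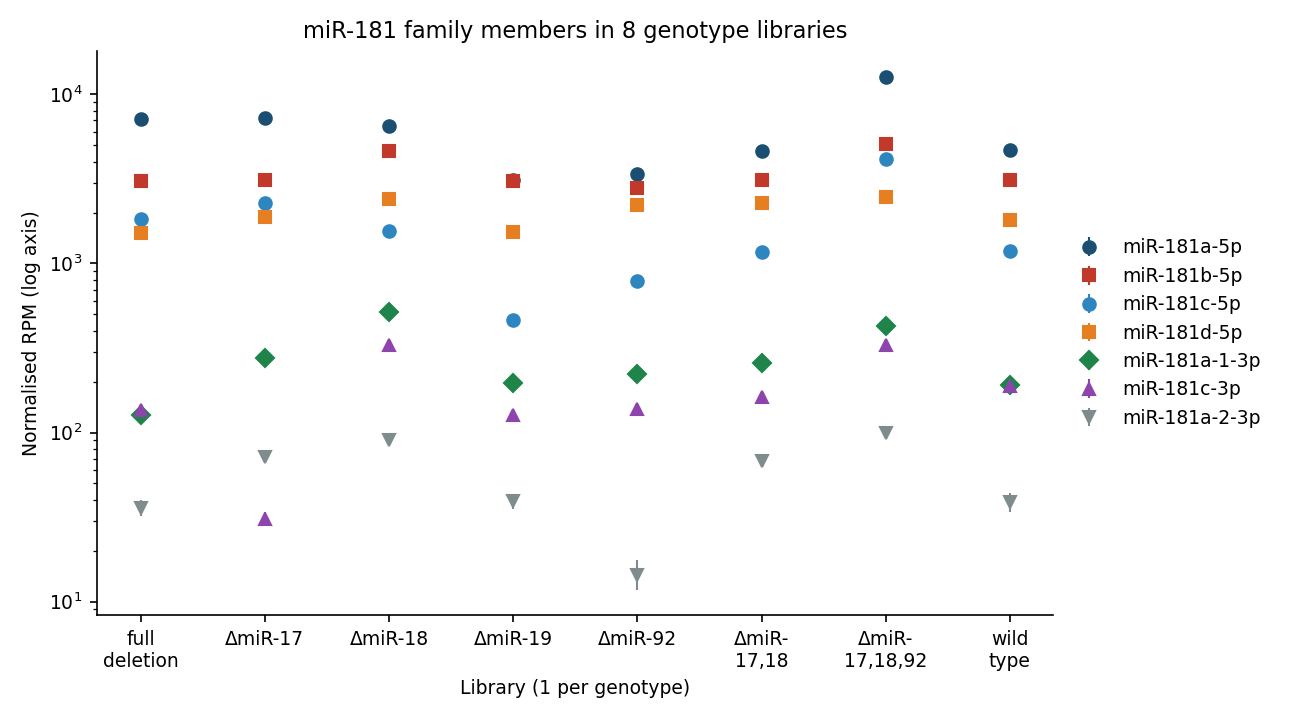
Levels of the members in nRPM (log axis) in the 7 mutant libraries and, at the right, wild type, 1 point per library with its 95% counting interval. miR-181a-5p and miR-181c-5p are highest in ΔmiR-17,18,92 (12697 and 4153 nRPM) and lowest in ΔmiR-19 (3092 and 461 nRPM), while miR-181c-3p drops to 30.7 nRPM in ΔmiR-17.

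The 3p arms were less abundant. mmu-miR-181a-1-3p had 126 nRPM in the full deletion, 516 in ΔmiR-18, 275 in ΔmiR-17, 221 in ΔmiR-92, 197 in ΔmiR-19, 429 in ΔmiR-17,18,92 and 257 in ΔmiR-17,18, against 190.3 nRPM in wild type. ΔmiR-18 was its highest library and the full deletion its lowest.

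mmu-miR-181a-2-3p had 35.8 nRPM in the full deletion, 90.1 in ΔmiR-18, 71.7 in ΔmiR-17, 14.5 in ΔmiR-92, 39.1 in ΔmiR-19, 99.5 in ΔmiR-17,18,92 and 68.1 in ΔmiR-17,18, against 38.7 nRPM in wild type. The level in ΔmiR-92 rested on 101 reads and was the lowest. It alone of the 7 members averaged under 100 nRPM, at 57.2 ± 29.7 nRPM (SD, n = 8).

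mmu-miR-181c-3p had 136 nRPM in the full deletion, 328 in ΔmiR-18, 30.7 in ΔmiR-17, 137 in ΔmiR-92, 127 in ΔmiR-19, 330.0 in ΔmiR-17,18,92 and 161 in ΔmiR-17,18, against 189.7 nRPM in wild type. ΔmiR-17, with 415 reads, stood below all other libraries. The ranges were 4.08-fold for miR-181a-1-3p, 6.89-fold for miR-181a-2-3p and 10.7-fold for miR-181c-3p. Of the 319 rows averaging at least 100 nRPM, 84.3% had a smaller range than miR-181a-1-3p and 97.8% than miR-181c-3p. Without the library farthest from the others, left out after the data had been seen, the ranges were 2.71-fold for miR-181a-1-3p without the full deletion, 2.78-fold for miR-181a-2-3p without ΔmiR-92 and 2.59-fold for miR-181c-3p without ΔmiR-17. Over those libraries 66.8%, 69.3% and 64.3% of the 319 rows had a smaller range, and the medians were 2.21-fold, 2.23-fold and 2.24-fold. The rows lost the same library as the member and kept their own farthest one. These shares therefore cannot tell how usual a member was apart from that library. miR-181a-2-3p, averaging under 100 nRPM, is itself not among these rows.

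Set against wild type, members differed by 2-fold or more in 9 of 49 ratios, 6 higher and 3 lower. Of the 538 rows outside the cluster with a mean of at least 10 nRPM, the share past 2-fold ran between 12.1% in ΔmiR-17 and 24.3% in ΔmiR-17,18. The share of the members over all ratios lay within that span. In ΔmiR-17,18,92 all 7 members stood above wild type and 4 were at least 2-fold higher, where 21.0% of the 538 rows outside the cluster with a mean of at least 10 nRPM differed by 2-fold either way and 11.9% were at least that much higher. They were miR-181c-5p at 3.50-fold (95% interval 3.41 to 3.58), miR-181a-5p at 2.73-fold (2.69 to 2.76), miR-181a-2-3p at 2.57-fold (2.25 to 2.96) and miR-181a-1-3p at 2.25-fold (2.12 to 2.40). miR-181c-3p, miR-181b-5p and miR-181d-5p stood at 1.74-fold, 1.62-fold and 1.37-fold. The median log2 ratio was 1.17 over the members and 0.02 over all 538 rows. With plain read totals 6 members were past 2-fold, where 25.8% of all rows were. The muscle markers summed to 4703 nRPM in this library, against 3042 nRPM in wild type. The neural sum stood at 1.07 of wild type, the blood sum at 0.812 and the endothelial sum at 0.688. Within the neural sum miR-9-5p was above wild type (2656 against 1806 nRPM) and miR-124-3p below it (937 against 1168 nRPM). The part of these tissues was not tested.

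In ΔmiR-18 all 7 members again stood above wild type. The 3p arms miR-181a-1-3p, at 2.71-fold (2.55 to 2.88), and miR-181a-2-3p, at 2.33-fold (2.03 to 2.68), were the 2 past 2-fold, where 17.1% of all rows were and 8.92% were higher by that much. The 5p arms lay between 1.30-fold for miR-181c-5p and 1.48-fold for miR-181b-5p, and the median log2 ratio was 0.57 over the members and -0.02 over all rows. In this library the blood markers summed to 2560.3 nRPM, against 1108 nRPM in wild type, and the neural markers to 7717 nRPM, against 5071 nRPM in wild type. The muscle sum stood at 1.02 of wild type and the endothelial sum at 0.920. The part of these tissues was not tested.

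In ΔmiR-17 the arms of one hairpin went opposite ways. miR-181c-3p, at 0.162 of wild type (0.145 to 0.181), was the 1 member past 2-fold, where 12.1% of all rows were and 6.88% were lower by that much, while miR-181c-5p stood at 1.91-fold, miR-181a-2-3p at 1.85-fold and miR-181a-5p at 1.56-fold. miR-181b-5p and miR-181d-5p stood at 1.003 and 1.04 of wild type. With plain read totals 3 members were past 2-fold, where 13.2% of all rows were.

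Each of ΔmiR-19 and ΔmiR-92 had 1 member at least 2-fold lower and 5 of 7 below wild type. The 5 in ΔmiR-19 include miR-181b-5p at 0.984, whose interval (0.966 to 1.001) included 1. The median log2 ratio in ΔmiR-19 was -0.25 over the members and 0.03 over all rows. In ΔmiR-92 the medians were -0.45 and -0.01. In ΔmiR-19 it was miR-181c-5p, at 0.388 of wild type (0.374 to 0.403), where 15.2% of all rows were past 2-fold and 9.67% were lower by that much. miR-181a-5p stood at 0.664 there. In ΔmiR-92 it was miR-181a-2-3p, at 0.374 of wild type (0.293 to 0.473), where 17.3% of all rows were past 2-fold and 8.36% lower by that much, with miR-181c-5p at 0.659 and miR-181a-5p at 0.730.

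No member was past 2-fold in the full deletion, where 18.8% of all rows were, or in ΔmiR-17,18, where 24.3% were. In the full deletion miR-181a-5p and miR-181c-5p stood at 1.52-fold and 1.53-fold, the other 5 members below wild type, with miR-181a-1-3p lowest at 0.665. Among those 5, the intervals of miR-181b-5p at 0.987 (0.969 to 1.005) and miR-181a-2-3p at 0.925 (0.783 to 1.094) included 1. The median log2 ratio was -0.11 over the members and 0.04 over all rows. In ΔmiR-17,18 the ratios lay between 0.851 for miR-181c-3p and 1.76 for miR-181a-2-3p. These mutant comparisons share the single wild-type library.

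Counted at 1.5-fold, the members past the threshold were 3 in the full deletion (41.8% of all rows), 3 in ΔmiR-18 (36.8%), 4 in ΔmiR-17 (32.5%), 2 in ΔmiR-92 (39.8%), 2 in ΔmiR-19 (36.1%), 6 in ΔmiR-17,18,92 (40.9%) and 1 in ΔmiR-17,18 (49.4%). ΔmiR-17,18,92 had the most members past either threshold.

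**Figure D2:**
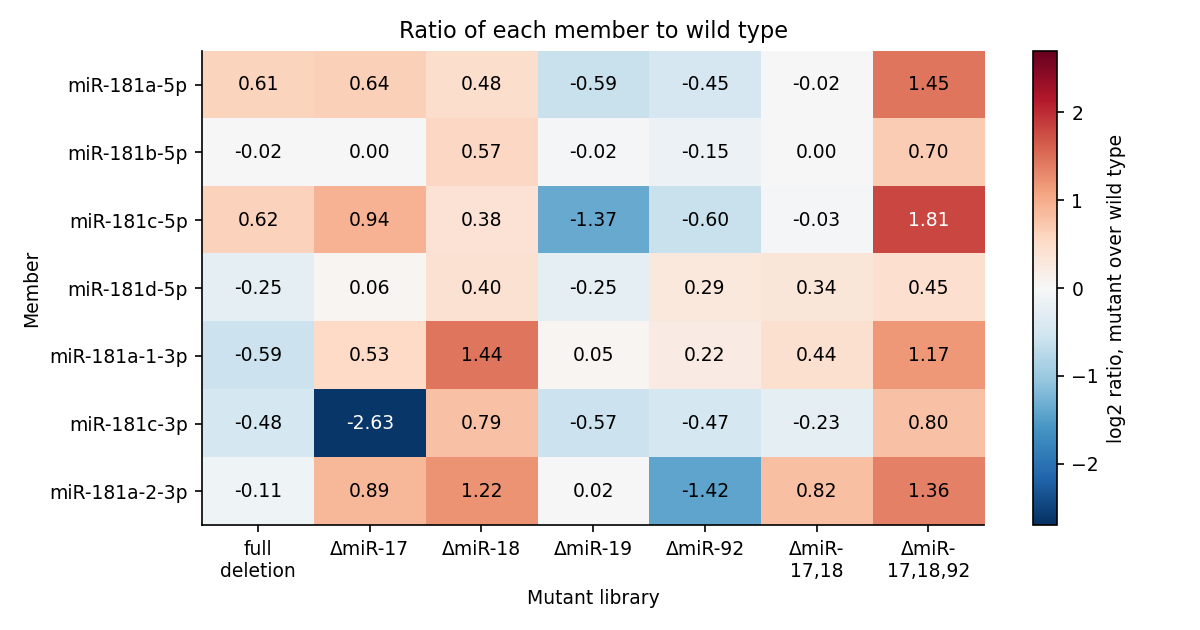
Heat map of the log2 ratio of each mutant library (columns) to wild type for the 7 members (rows), with red for higher and blue for lower than wild type and the value printed in each cell. The highest value is that of miR-181c-5p in ΔmiR-17,18,92 (log2 1.81) and the lowest that of miR-181c-3p in ΔmiR-17 (log2 -2.63).

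A model with 1 additive term for each deleted miRNA, fitted over the 8 libraries, asked whether a level followed the loss of miR-17, miR-18, miR-19 or miR-92. limma with Benjamini-Hochberg adjustment over all rows called 0 of the 7 members for every term, where it called 0 of 538 rows outside the cluster (0.0%). At an unadjusted p under 0.05 the members numbered 1, 1, 0 and 0 for the 4 terms in limma, and the same in edgeR and DESeq2, which also called none of them. Over all 538 rows the counts at an unadjusted p under 0.05 were 11, 19, 17 and 7 in limma, 9, 17, 17 and 7 in edgeR, and 16, 24, 26 and 17 in DESeq2. edgeR called 0 of the 538 rows for each term, and DESeq2 called 2, both for loss of miR-19. All 7 passed the filter of 10 nRPM on average.

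That member was miR-181c-3p, with a fitted log2 of -1.57 ± 0.46 (SE) for loss of miR-17 (limma adjusted p = 0.886) and 1.80 ± 0.46 for loss of miR-18 (limma adjusted p = 0.569). Without the ΔmiR-17 library the estimates were -0.64 and 0.98 (limma adjusted p = 0.9998 and 0.9996), and without ΔmiR-18 they were -2.39 and 2.73 (limma adjusted p = 0.332 and 0.354). mmu-miR-181c-5p had 0.94 ± 0.50 for loss of miR-17 and -0.85 ± 0.50 for loss of miR-19 (limma adjusted p = 0.996 and 0.959). Its miR-17 estimate was 0.20 without ΔmiR-17, 0.33 without ΔmiR-92 and 1.59 without ΔmiR-18, and its miR-19 estimate was -1.46 without ΔmiR-92. With 3 residual degrees of freedom and no replicate, these estimates take the misfit of the additive model as the error.

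Of the reads counted over the 986 rows, the 5p arms together took 1.43% in the full deletion, 1.31% in ΔmiR-18, 1.52% in ΔmiR-17, 0.980% in ΔmiR-92, 0.834% in ΔmiR-19, 2.85% in ΔmiR-17,18,92 and 1.05% in ΔmiR-17,18, against 0.973% in wild type. Those reads include the arms of the miR-17~92 cluster, so this share also moves with their deletion. In nRPM the sum of the 5p arms was 2.26-fold that of wild type in ΔmiR-17,18,92 and 0.756 of it in ΔmiR-19. In tissue of many cell types fewer cells of a type and less RNA per cell cannot be told apart.

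The makeup of that sum shifted between libraries, a measure that does not depend on the scaling between them. miR-181a-5p and miR-181c-5p together made up 66.0% of the 4 arms in the full deletion, 53.4% in ΔmiR-18, 65.5% in ΔmiR-17, 45.4% in ΔmiR-92, 43.6% in ΔmiR-19, 69.1% in ΔmiR-17,18,92 and 51.6% in ΔmiR-17,18, against 54.2% in wild type. The share was highest in the full deletion, ΔmiR-17 and ΔmiR-17,18,92, and lowest in ΔmiR-19 and ΔmiR-92. ΔmiR-17,18, which also lacks miR-17, lay below wild type. The sum of miR-181a-5p and miR-181c-5p ranged 4.74-fold over the libraries and that of miR-181b-5p and miR-181d-5p 1.64-fold.

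**Figure D3:**
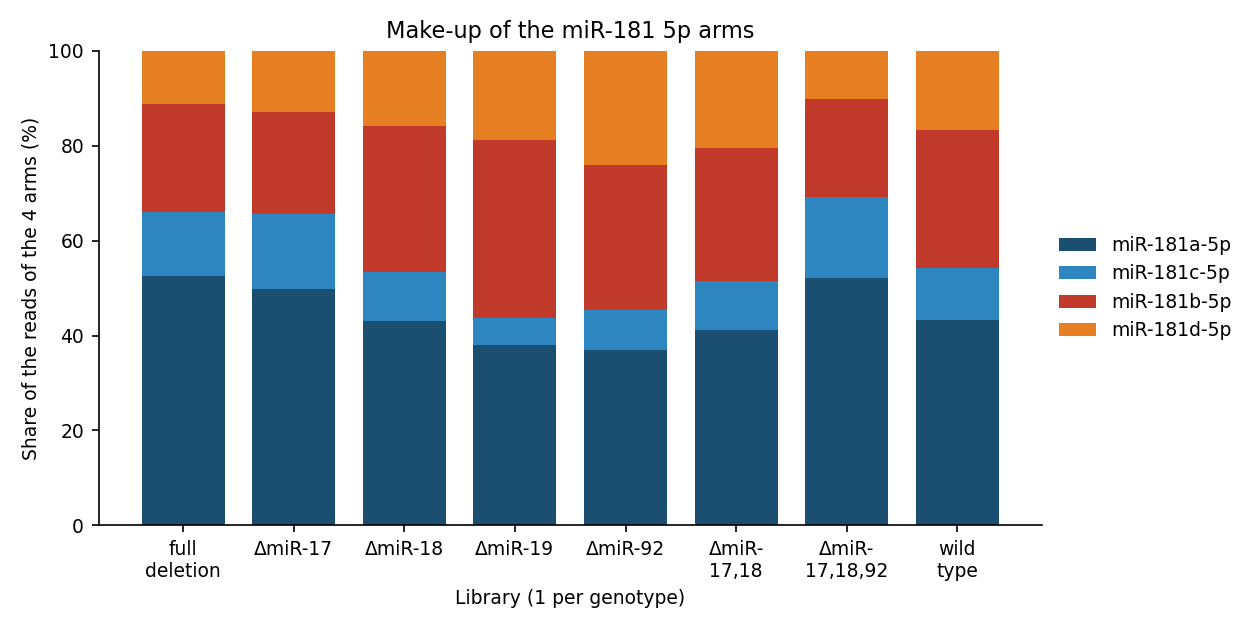
Share of each 5p arm (percent) in the sum of the 4 arms, by library, mutants first and wild type at the right. miR-181a-5p and miR-181c-5p together take 69.1% in ΔmiR-17,18,92 and 43.6% in ΔmiR-19, against 54.2% in wild type.

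The ratios between arms of neighbouring hairpins differed several-fold between libraries for miR-181c and miR-181d and less for miR-181a and miR-181b. miR-181c-5p over miR-181d-5p was 1.20 in the full deletion, 0.647 in ΔmiR-18, 1.20 in ΔmiR-17, 0.354 in ΔmiR-92, 0.302 in ΔmiR-19, 1.68 in ΔmiR-17,18,92 and 0.510 in ΔmiR-17,18, against 0.656 in wild type. miR-181a-5p over miR-181b-5p was 2.30 in the full deletion, 1.404 in ΔmiR-18, 2.32 in ΔmiR-17, 1.21 in ΔmiR-92, 1.01 in ΔmiR-19, 2.51 in ΔmiR-17,18,92 and 1.47 in ΔmiR-17,18, against 1.49 in wild type. Both ratios put the libraries in the same order, except that ΔmiR-18 and ΔmiR-17,18 changed places.

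Among the arms with the seed ACAUUCA, those most alike in sequence kept closer to each other than neighbours did. After centring each log2 profile on its mean, the root mean square difference over the 8 libraries was 0.25 between miR-181b-5p and miR-181d-5p and 0.32 between miR-181a-5p and miR-181c-5p. It was 0.45 for the neighbours miR-181a-5p and miR-181b-5p and 0.83 for miR-181c-5p and miR-181d-5p. The remaining pairs of the 6 had 0.58 and 0.75. Rows outside the family came as near to miR-181a-5p as miR-181c-5p did (0.322), with miR-206-3p at 0.296, miR-200a-3p at 0.302 and miR-331-3p at 0.321. Both miR-181b-5p and miR-181d-5p varied little, with ranges of 1.80-fold and 1.63-fold. These are descriptions over 8 libraries, and arms that share bases can also share reads. miR-181a-5p and miR-181b-5p are each made at separate loci, so their comparison does not follow a single pair of neighbours. miR-181a-1-3p and miR-181c-3p, which share the seed CCAUCGA, were not compared in this way.

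The rows of miR-181b-5p also differed from each other by library. The lower row stood at 0.753 of the higher in the full deletion, 0.878 in ΔmiR-18, 0.753 in ΔmiR-17, 0.893 in ΔmiR-92, 0.819 in ΔmiR-19, 0.758 in ΔmiR-17,18,92 and 0.834 in ΔmiR-17,18, against 0.849 in wild type. It was lowest in the 3 libraries in which miR-181a-5p over miR-181b-5p was highest. Which row stands for which locus was not given in the sources used here, and its part in the shift was not tested.

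**Figure D4:**
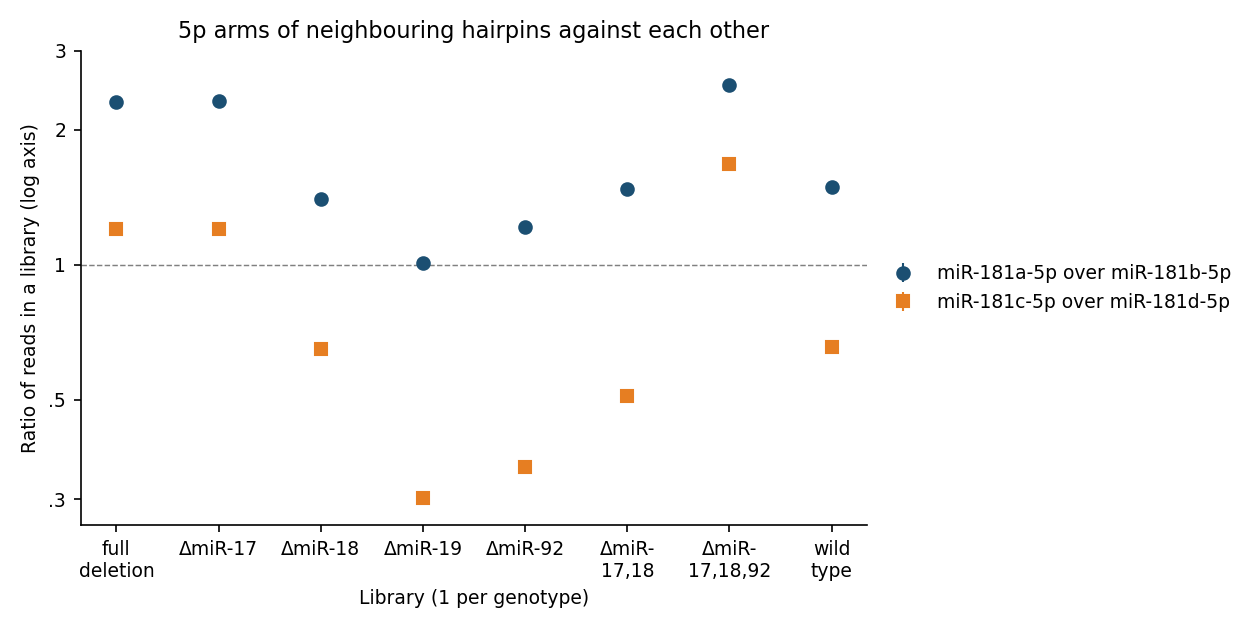
Ratio of reads within a library (log axis) of miR-181a-5p to miR-181b-5p (circles) and of miR-181c-5p to miR-181d-5p (squares), mutants first and wild type at the right, with 95% counting intervals that are smaller than the symbols. Both are highest in ΔmiR-17,18,92 (2.51 and 1.68) and lowest in ΔmiR-19 (1.01 and 0.302).

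The balance of arms within the miR-181c hairpin also varied. miR-181c-5p over miR-181c-3p was 13.4 in the full deletion, 4.72 in ΔmiR-18, 73.9 in ΔmiR-17 (67.1 to 81.7), 5.71 in ΔmiR-92, 3.62 in ΔmiR-19, 12.6 in ΔmiR-17,18,92 and 7.22 in ΔmiR-17,18, against 6.26 in wild type. Its range of 20.4-fold exceeded that of 163 of the 168 hairpins whose arms averaged 10 nRPM or more each and had a read in every library, with a median range of 4.13-fold. That range rested on ΔmiR-17. Without it, left out after the data had been seen, miR-181c ranged 3.69-fold. The median of the hairpins was then 3.67-fold, with 85 of 168 below miR-181c. The other hairpins lost ΔmiR-17 whether or not it was their own farthest library. The place of miR-181c near the median therefore cannot tell whether its balance was usual elsewhere. In 3 mutants the ratio of miR-181c lay at least 2-fold from wild type. The ratio was 11.8 times that of wild type in ΔmiR-17, where 23.2% of the hairpins differed by 2-fold or more, 2.13 times in the full deletion (31.5% of hairpins) and 2.01 times in ΔmiR-17,18,92 (32.1%). It was nearer to wild type in ΔmiR-18 (23.8% of hairpins past 2-fold), ΔmiR-92 (33.3%), ΔmiR-19 (29.2%) and ΔmiR-17,18 (43.5%).

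The 3p arms also separate the 2 miR-181a loci, whose 5p arm is the same. miR-181a-1-3p over miR-181a-2-3p lay between 3.53 in the full deletion and 5.73 in ΔmiR-18 in 6 mutants, at 15.3 (12.5 to 18.9) in ΔmiR-92 and at 4.92 in wild type. ΔmiR-92 stood apart through its low miR-181a-2-3p. miR-181a-5p over the summed 3p arms of both loci ran between 10.7 in ΔmiR-18 and 43.7 in the full deletion, against 20.3 in wild type.

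**Figure D5:**
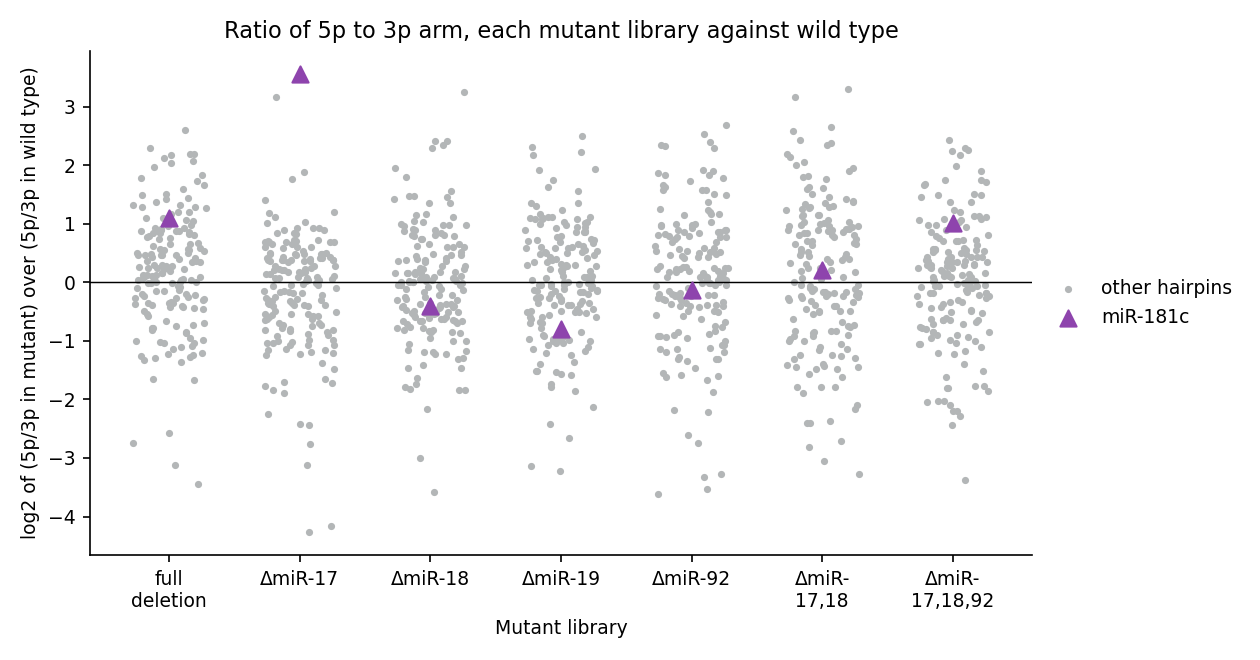
Ratio of 5p to 3p arm in each mutant library over the same ratio in wild type (log2), for miR-181c (triangles) and each of the other hairpins (grey points, spread sideways for legibility). In ΔmiR-17 miR-181c lies above all other hairpins, at 11.8 times the wild-type ratio (log2 3.56), and in the other mutants it lies among them. In ΔmiR-17 miR-376b (log2 -4.16) and miR-376c (log2 -4.27) lie farther from wild type, on the lower side.

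Among the 312 other rows averaging 100 nRPM or more, the profile nearest to that of miR-181a-5p was that of miR-206-3p, a skeletal muscle miRNA, with a root mean square log2 difference of 0.30 over 8 libraries. miR-200a-3p of epithelia (0.30), miR-331-3p (0.32), miR-324-3p (0.34) and miR-34a-5p, whose gene p53 activates (0.37), came next, against a median of 0.74. Nearest to miR-181c-5p were let-7e-5p (0.49), miR-206-3p (0.51) and miR-200a-3p (0.51), against a median of 0.99.

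Markers of tissues that could hold these miRNAs varied too. The 8 neural markers, led by miR-9-5p and miR-124-3p, summed to 6201 nRPM in the full deletion, 7717 in ΔmiR-18, 7611 in ΔmiR-17, 3871 in ΔmiR-92, 4933 in ΔmiR-19, 5407 in ΔmiR-17,18,92 and 4199 in ΔmiR-17,18, against 5071 nRPM in wild type. Relative to wild type, the neural sum stood beside the sum of the 5p arms at 1.22 and 1.25 in the full deletion, 1.52 and 1.397 in ΔmiR-18, 1.501 and 1.35 in ΔmiR-17, 0.763 and 0.854 in ΔmiR-92, 0.973 and 0.756 in ΔmiR-19, 1.07 and 2.26 in ΔmiR-17,18,92, and 0.828 and 1.04 in ΔmiR-17,18. The neural sum joins markers that parted in ΔmiR-19 and ΔmiR-17,18,92. There miR-9-5p stood at 1037 and 2656 nRPM, against 1806 nRPM in wild type. miR-124-3p stood at 1502 and 937 nRPM, against 1168 nRPM in wild type. In the other mutants both lay on the same side of wild type. The 8 blood markers, led by miR-142-5p and miR-451, were lowest in ΔmiR-17,18,92, at 899.9 nRPM, and highest in ΔmiR-18, at 2.31-fold of wild type, and 2 of them were at 0 reads in the full deletion alone. In ΔmiR-19 the blood sum stood at 1.39-fold of wild type. The 6 muscle markers, led by miR-1a-3p and miR-133a-3p, were lowest in ΔmiR-17, at 2218 nRPM, and highest in ΔmiR-17,18, at 6108 nRPM. Their sum stood at 1.55-fold of wild type in ΔmiR-17,18,92 and at 1.71-fold in ΔmiR-92. The endothelial pair miR-126-3p and miR-126-5p summed to 7371 nRPM in ΔmiR-17,18,92, the lowest, and reached 17558 nRPM in ΔmiR-17,18, against 10720 nRPM in wild type. limma called none of the markers that passed the filter for any term. These were all markers of each list except blood, where 6 of 8 passed. The part of these tissues in the levels of the miR-181 family was not tested.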

How the data were processed

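Small RNA was measured in 8 libraries, 1 per genotype, and in 1 library of undetermined reads that entered no ratio to wild type and no fit. RNA was extracted with Trizol, per the labels' protocols. Per the submitters' processing notes, the build was mm9, and the tools listed were featureCounts (Subread 1.4.2), STAR 2.2.0 and SAMtools 0.1.19. The deposited table holds a normalised signal per mature miRNA and library, in which, judged from the values, the authors had divided reads by 1 factor per library. The number of other columns of values not used was 0. All values were whole multiples of 1 read within 0.001 reads (100%), so reads were recovered. Of 1046 rows, 57 accessions were listed more than once. Rows within 10% were merged and the higher kept, leaving 986 rows.

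Values were scaled to nRPM. limma 3.58.1 (trend, R 4.3.3) was fitted to log2(nRPM + 1), a scale that understates changes of low rows, with 4 additive terms over 8 libraries (3 residual degrees of freedom), for rows averaging 10 nRPM or more (538 outside the cluster), with Benjamini-Hochberg adjustment over all rows and a threshold of 0.05. edgeR 4.0.16 (quasi-likelihood) and DESeq2 1.42.0 on recovered reads were alternatives. With no replicates, single mutants were compared with wild type by ratio, with exact conditional (Clopper-Pearson) 95% intervals, counting members past 2-fold.

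All 7 members were named, together with the 5 rows nearest in profile to miR-181a-5p and the 3 nearest to miR-181c-5p, the deleted arms that check the labels, and the 2 most abundant markers of each list. The members, lists and rules were chosen with earlier results of these data known. Sequences came from RefSeq (GRCm38.p6) and hairpin positions from GENCODE on GRCm38.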

Additional observations from a re-analysis of the deposited data

Results flagged for a closer look

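In 15 sets of 8 libraries, the library farthest from the rest was set against the range of the set on the log2 scale. Chance flags about 1 in 20 such sets, and these libraries differ in genotype. miR-181c-3p in ΔmiR-17 stood far below the other libraries, at 30.7 nRPM against 189.7 nRPM in wild type. miR-181c-5p over miR-181c-3p stood far above them in the same library, at 73.9 against 6.26 in wild type, and both values rest on the same reads of the 3p arm. miR-181a-1-3p over miR-181a-2-3p was highest in ΔmiR-92, at 15.3 against 4.92 in wild type. miR-181a-5p over miR-181c-5p was highest in ΔmiR-19, at 6.71 against 3.92 in wild type. The causes were not tested.

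The undetermined reads, which belong to no genotype, held 247 nRPM of miR-181a-1-3p, above 190.3 nRPM in wild type. They held 61.9 nRPM of miR-181a-2-3p, above 38.7 nRPM in wild type. Both values lay within the spans of the libraries of known genotype, 126 to 516 nRPM and 14.5 to 99.5 nRPM.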

How the results depend on the processing

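The counts of members past 2-fold depended on the threshold in several libraries. With a threshold of 1.5-fold they were 3 in the full deletion (0 at 2-fold), 4 in ΔmiR-17 (1), 2 in ΔmiR-19 (1), 2 in ΔmiR-92 (1) and 1 in ΔmiR-17,18 (0). With plain read totals the count in ΔmiR-17 was 3, since miR-181c-5p reached 2.21-fold and miR-181a-2-3p 2.14-fold, and in ΔmiR-17,18,92 it was 6 against 4. Of all rows 13.2% and 25.8% were past 2-fold with plain totals in these libraries, against 12.1% and 21.0% with the deposited scaling. Plain totals shifted all log2 ratios by 0.37 in ΔmiR-17,18,92, 0.24 in ΔmiR-92, 0.22 in the full deletion, 0.21 in ΔmiR-17 and 0.18 in ΔmiR-19, and totals outside the cluster shifted them by -0.25 in the full deletion. Of 49 member ratios, 8 crossed 1 under some alternative, none of them past 2-fold. For miR-181b-5p with plain totals the ratio became 1.15 in the full deletion, 1.11 in ΔmiR-19 and 1.06 in ΔmiR-92. limma called 0 members for each term under every setting run, including each library left out in turn (0 to 0), edgeR and DESeq2 called none either, and the lowest adjusted p of a member in any setting was 0.0589, from DESeq2. Ratios within a library do not depend on scaling, but those that involve miR-181b-5p move with the row taken for it. No paired analysis was possible because each genotype had 1 library. Low 3p arms are limited by depth, as with the 101 reads of miR-181a-2-3p in ΔmiR-92.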

Other observations

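The 3p arms of the remaining hairpins were scarce. miR-181b-1-3p, which lies beside miR-181a-1 on its transcript, ranged between 22.1 nRPM in ΔmiR-17,18,92 and 75.4 nRPM in ΔmiR-18. Its neighbour miR-181a-1-3p exceeded it by 19.4 times in ΔmiR-17,18,92, against 2.68 times in wild type, which was the lowest library, and the other 6 mutants lay between 5.51 and 8.93 times. miR-181d-3p ranged between 1.26 and 9.504 nRPM. miR-181b-2-3p had 0 reads in ΔmiR-19, where 3 reads would equal 0.316 nRPM, and 6.42 nRPM in wild type.

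In the library of undetermined reads miR-181a-5p stood at 3402 nRPM, miR-181b-5p at 2164 nRPM, miR-181c-5p at 1032 nRPM, miR-181d-5p at 1261 nRPM and miR-181c-3p at 122 nRPM. miR-181a-5p and miR-181c-5p together made up 56.4% of its 4 5p arms.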
